A study of Homo sapiens with 24 samples.

Results

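The 6 libraries described here were made from RCC4+VHL cells kept in normoxia (21% oxygen) and treated with the vehicle DMSO (0.1%) for 6 h, and they are 6 of the 24 libraries of the study, chosen by their sample labels. They hold polyadenylated RNA and give the state of the cells from which the effects of hypoxia and of an AHR ligand were measured. RCC4 is a clear cell renal carcinoma line that lacks working VHL, and RCC4+VHL is a clone of it made by stable transfection with a VHL plasmid and kept under G418 selection. The cells had been grown in charcoal-treated serum before treatment, a step the authors used to lower basal AHR activity. The study's other groups, also of 6 replicates each, were normoxia + ITE (100 nM of the AHR ligand ITE for 6 h), hypoxia + DMSO (0.5% oxygen for 6 h) and hypoxia + ITE. All groups carry the VHL plasmid, so nothing here compares cells with and without VHL.

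The kidney tubule is built under the transcription factors PAX2, PAX8 and LHX1, and clear cell carcinoma, which arises from the proximal tubule, usually keeps PAX8 and PAX2. VHL is the substrate receptor of the ubiquitin ligase that marks hypoxia-inducible factor (HIF) for destruction when oxygen is present. Loss of VHL leaves HIF active in normoxia and raises genes such as CA9, EGLN3 and NDUFA4L2, so a line with VHL restored is used to study HIF under the control of oxygen.

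Total counts in the 6 libraries ranged from 6898880 (replicate 5) to 93851342 (replicate 3), with 185150259 counts in all. In a single library 3 counts stood for 0.032 to 0.4349 CPM, and over the 6 together for 0.0162 CPM. CPM of genes are counts scaled to library size by TMM normalisation. The floors were taken from total counts without the TMM factor, which lay between 1.026 and 1.087 in these libraries. These floors, and the statement that a gene had no count, cover counting error only. The common biological coefficient of variation, edgeR's estimate of the spread of a typical gene between replicates beyond counting error, was 12.6% in these 6 libraries, 11.7% in normoxia + ITE, 20.2% in hypoxia + DMSO and 33.2% in hypoxia + ITE. Across 11650 genes with a mean of at least 1 CPM, the rank correlation of each library with the mean of the others lay between 0.989 and 0.997, a description across genes, which are not independent replicates. Replicate 4 stood apart: 75 genes of at least 1 CPM there exceeded their highest value in the other libraries at least 5-fold, each on 20 counts or more, while the same count for the other replicates lay between 0 and 2. For part of the genes, values without replicate 4 are therefore given beside those of all 6. A mean of this group given alone is that of all 6. Of the 36 gene lists used below, the renal lineage factors alone had another number of members at 1 CPM or more in every library when it was left out.

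The 3 marker genes of the line were present in every library. PAX8, on chromosome 2 (GRCh37, 113973574 to 114036498), ranged from 219.9 to 265.2 CPM with a median of 244.4, and its mean was 244.0 ± 17.6 CPM (SD, n = 6), or 247.0 ± 17.9 without replicate 4. PAX2, on chromosome 10 (102495153 to 102589701), was lower and more variable, from 17.1 CPM in replicate 5 to 39.2 in replicate 2 (median 28.2, mean 28.2 ± 8.16, or 29.3 ± 8.64 without replicate 4). VHL, on chromosome 3 (10183462 to 10195351), ranged from 167.5 to 189.0 CPM (median 172.0, mean 175.2 ± 8.56, or 176.6 ± 8.81 without replicate 4). PAX8 and VHL were thus held within a narrow band in every library. Counts assigned to VHL may come from the plasmid or from the cell's own gene, and the 2 cannot be told apart in these files.

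The most abundant messages encoded the translation machinery, the actin cytoskeleton, iron storage and glycolysis. Levels between genes are given in TPM, which is CPM divided by the length of the canonical transcript and rescaled to a common sum. TMSB10, a thymosin that binds monomeric actin, was the highest in 6 of 6 libraries, between 12670 and 15410 TPM (mean 14010 ± 1129). EEF1A1, the elongation factor that brings aminoacyl-tRNA to the ribosome, followed with 9561 to 11070 TPM (mean 10310 ± 561), so that these ranges did not overlap. Without replicate 4 the means were 13730 and 10270 TPM.

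Below them came RPS2 (8765 ± 371 TPM), ACTB (7187 ± 1389, or 7443 without replicate 4) and GAPDH (5704 ± 350). Among the ranks below, RPL41 (5048 ± 433 TPM), EEF1G, the ferritin light chain FTL, the glutathione transferase GSTP1, the ferritin heavy chain FTH1, RPL7A, TMSB4X, RPLP2 and RPS24 (4262 ± 178) were close together, and neighbours in this order differed by less than the larger of their SDs. The 15 highest genes were the same without replicate 4. With the length of all annotated exons in place of the canonical transcript, 11 of the 15 remained among the highest 15. TMSB10 stayed first at 27440 TPM, FTL stood above EEF1A1 (9461 and 7043 TPM) and RPS24 moved to rank 250 (569 TPM), so both the levels and their order depend on the length chosen.

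The start of many of these messages carries a run of pyrimidines, known as the 5′ terminal oligopyrimidine (TOP) tract, which places translation of ribosomal proteins and elongation factors under growth control. The RefSeq sequences given next (GRCh38.p14, sense strand) run from 5 bases before to 20 bases after the annotated start of 5 abundant messages with such a run and 2 without, with the run in capitals, and show what the search counted.

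TMSB10 (2:84905651-84905675, plus strand): CTTTTgtttcttgctgcagcaacgc
EEF1A1 (6:73521013-73521037, minus strand): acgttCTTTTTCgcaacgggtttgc
RPL41 (12:56116628-56116652, plus strand): CCTTTCTCTCggccttagcgccatt
RPL7A (9:133348213-133348237, plus strand): CTTTCCTTTCTCTCTCCTCCCgccg
RPLP2 (11:809962-809986, plus strand): gCCTTCCTTTTCCTCCCTgtcgcca
GAPDH (12:6535259-6535283, plus strand): tccctgtccggatgctgcgcctgcg
TMSB4X (X:12975105-12975129, plus strand): ccgacaactcggtggtggccactgc

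The search looked, on the sense strand only, for a C followed by at least 4 bases that were each C or T, starting and reaching its minimum length between 5 bases before and 10 after the start. Of the 100 genes with the highest mean TPM, 82 were matched to a RefSeq start and 45 of these (54.9%) held such a run, against 5749 of all 27305 starts in the table (21.1%) and 1914 of 8347 starts (22.9%) of genes at 1 CPM or more in all 6 libraries. The cytosolic ribosomal proteins held it in 51 of 63 (81.0%), and the abundant genes other than ribosomal proteins in 12 of 39 (30.8%). A match describes letters at an annotated start and does not show that the tract is used in these cells.

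The 10 genes with the most counts took 6.18% ± 0.24 of all counts, the 50 genes with the most 14.2% ± 0.21 and the 1000 with the most 52.9% ± 0.73 (n = 6). EEF1A1 led by counts as well, at 15160 to 17110 CPM. It was followed by RNA45S5, the precursor of ribosomal RNA, which ranged from 12450 to 17050 CPM (mean 14230 ± 1638) in these libraries of polyadenylated RNA. The other leading genes by counts were ACTB, RPS2, the elongation factor EEF2 (3452 ± 134 CPM), GAPDH, the cytoplasmic actin ACTG1 (3222 ± 175 CPM), EEF1G, the actin cross-linker FLNA (3072 ± 229 CPM) and the chaperone HSPA8 (3049 ± 373 CPM).

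The cytosolic ribosomal proteins made up 18.5% ± 0.74 of all TPM, and 77 of their 79 genes had at least 1 CPM in all 6 libraries. One of the exceptions was RPL21 (0.581 ± 0.158 CPM). It has near-identical copies elsewhere in the genome, and since the authors removed fragments that did not map uniquely, this value says little about the gene's expression. All 26 translation factors of the list, which include NPM1 and GNB2L1, reached 1 CPM in every library and held 3.77% ± 0.10 of TPM. Likewise all 41 cytoskeletal and adhesion genes did, with 6.77% ± 0.19 of TPM and PFN1 and ACTG1 next to TMSB10, ACTB and TMSB4X.

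All 26 proliferation genes were present, led by the DNA polymerase clamp PCNA (375.9 ± 24.8 CPM), the anaphase activator CDC20 (267.8 ± 20.9), UBE2C, MCM7 and CCNB1 (258.7 CPM). The 15 reference genes were also all present, among them PPIA, RPLP0 and B2M.

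Renal lineage genes were present in part. Of 35 renal lineage transcription factors 16 had at least 1 CPM in all 6 libraries (17 of 35 without replicate 4) and 4 had no count. Of all 23106 symbols, 11066 (47.9%) reached 1 CPM in all 6 and 6692 (29.0%) had no count. The share of factors present is thus near that of all symbols. It is below the 57.3% of matched protein-coding symbols, so this number alone is no finding about renal identity. PAX8 led per length (136.4 TPM), followed by HOXB7 (91.8 TPM, 55.3 ± 4.48 CPM), and FOXD1 (37.9 CPM) and PAX2 (15.4 TPM) were also among the highest. The list members with no count in any of the 6 libraries were EMX2, GATA3, TFAP2B and IRX1, of which GATA3 and TFAP2B mark the distal nephron and the collecting duct.

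HNF4A, the factor of the mature proximal tubule, and WT1, that of podocytes, were counted in replicate 4 alone, both at a mean of 0.00613 CPM over the 6. LHX1 (1.58 ± 0.591 CPM) was near the limit of 1 CPM and lowest in replicate 4, at 0.515 CPM. Among the 39 HOX genes in the counts, 22 reached 1 CPM in all 6 libraries and 5 had no count. HOXB7, HOXB9 (44.2 ± 6.25 CPM), HOXA9 (30.7 ± 2.09) and HOXC10 (27.7 ± 2.07) were the highest, while HOXA11 (0.0353 CPM) and HOXD11 (0.020 CPM, or 0.00196 without replicate 4), which pattern the embryonic kidney, were near 0.

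Of 35 proximal tubule genes, 10 had at least 1 CPM in every library. HAVCR1, the kidney injury molecule that marks damaged tubules and clear cell tumours, was the highest at 128.3 to 206.6 CPM (mean 169.7 ± 26.3). GGT1 (81.8 ± 9.62 CPM), the scaffold PDZK1 (54.0 ± 12.3), the peptidase DPP4 (34.1 ± 9.34) and the phosphate and urate transporter gene SLC17A3 (17.6 ± 9.61) followed in the order per length. Without replicate 4 HAVCR1 was at 172.7 ± 28.2 CPM, GGT1 at 85.1 ± 5.97 and PDZK1 at 49.2 ± 3.3. DPP4 was then at 34.1 ± 10.4 CPM and SLC17A3 at 19.1 ± 9.92. Genes of the working tubule were without counts: SLC22A6 and SLC22A8, the organic anion transporters, SLC7A9, AGXT2, and PCK1, FBP1 and G6PC of gluconeogenesis.

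Of the 30 genes of the loop of Henle, distal tubule and collecting duct, 2 reached 1 CPM in every library and 15 had no count, among them UMOD, SLC12A1, AQP2, CALB1 and FOXI1. The exceptions were FXYD2 (65.1 ± 8.19 CPM), a regulator of the sodium pump, and KRT7 (13.4 CPM). Of the podocyte and glomerular list 6 of 14 were present. These were ACTN4 (669.9 CPM), CD2AP, KIRREL, SYNPO, PODXL and PTPRO, most of which are also used outside the glomerulus, while NPHS1, which encodes nephrin of the slit diaphragm, had no count.

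The cells expressed epithelial and mesenchymal genes side by side. The keratins KRT8 (655.0 ± 96.8 CPM), KRT18 (518.2 ± 63.2) and KRT19 (205.2 CPM) and the adhesion molecule EPCAM (93.8 ± 8.32) were present in all libraries, as were 13 of 22 epithelial genes. The epithelial cadherin CDH1 was not among them, with 0 to 0.888 CPM (median 0.495), whereas the neuronal cadherin CDH2 lay between 211.5 and 255.8 CPM (median 236.1). Of 22 mesenchymal genes 15 were present, led by VIM (2039 ± 92.2 CPM), TAGLN (1150 ± 370), FN1 (710.5 ± 97.6), CDH2 and SNAI2 (22.2 CPM), and TWIST1 had no count. All 36 extracellular matrix genes were counted in at least 1 library and 28 reached 1 CPM in all 6. CYR61 (959.4 CPM), THBS1, TGFBI and the basement membrane chains COL4A1 (1116 CPM) and COL4A2 (1012 CPM) led per length.

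Of 30 tumour-associated genes of clear cell carcinoma, listed apart from the HIF-linked genes below, 21 were present in every library. VIM, the methyltransferase NNMT (859.8 ± 69.9 CPM), CAV1 (779.8 CPM), SQSTM1 (902.2 CPM) and IGFBP3 (652.2 CPM) were highest per length and ESM1 was at 0. Being listed apart does not show that they are independent of HIF, and APOL1 of this list was higher in hypoxia + DMSO (log2 fold change 0.92). Among receptors 22 of 35 were present, led by AXL (410.9 ± 24.96 CPM) and MET (281.2 ± 46.8), then FGFR1 (134.0 CPM), PPARG and TGFBR2, and the progesterone receptor PGR had no count.

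Of 35 renal tumour suppressor and chromatin genes, 32 were present in all 6 libraries. TCEB2 (127.3 CPM), a partner of VHL, KEAP1 (195.4), FH (127.0) and SDHB (67.5) were highest per length. PBRM1, a chromatin remodeller often mutated in this cancer, lay between 4.24 and 5.87 CPM (median 5.41) and at 1.49 ± 0.249 TPM, where SETD2 had 57.6 CPM and BAP1 77.9 CPM.

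The cell cycle inhibitors CDKN2A (chromosome 9, 21967751 to 21995300, GRCh37) and CDKN2B (22002902 to 22009304) had no count in the 5 libraries without replicate 4, which together hold 159102442 counts, and none in the 18 libraries of the other groups. Replicate 4 held 3 counts of CDKN2A and 7 of CDKN2B. The neighbouring gene MTAP (21802635 to 21937650) was present in every library at 51.0 to 62.1 CPM (mean 55.4 ± 4.05). A count of 0 over the 5 libraries allows up to 0.0189 CPM.

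HIF-linked genes of clear cell carcinoma were mostly present at this oxygen level, 22 of 30 in all 6 libraries. LDHA, the lactate dehydrogenase of glycolysis, was the highest (1507 to 2207 CPM, median 2030), and among the next per length were LOXL2 (270.1 CPM), SLC16A3 (161.7 ± 9.33) and STC2 (242.2 ± 53.8). CA9, EGLN3 and CXCR4 were counted in replicate 4 alone. CA9, the carbonic anhydrase used as a marker of clear cell tumours, had 13 counts (0.478 CPM) there, no count in the other 5 libraries and none in the 18 libraries of the other groups, the hypoxic ones included.

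Of 24 genes of the HIF and AHR machinery 18 were present. HSP90AA1 (2692 CPM), HSP90AB1 (1827) and PTGES3 (396.7), chaperones that hold AHR ready for ligand, were highest per length, followed by HIF1A (254.4 CPM). AHR itself lay between 29.1 and 41.5 CPM (median 34.5, mean 34.7 ± 4.05), and EPAS1, which encodes HIF-2α, at 135.2 CPM. The AHR target CYP1B1 was present without ligand at 56.7 ± 7.74 CPM, while CYP1A1 was at 0.0252 CPM and CYP1A2 had no count.

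In the antigen presentation list 14 of the 19 genes found in the counts were present. B2M (443.4 CPM), the invariant chain CD74 (235.4 ± 10.9), CD70 (126.5 ± 23.7) and HLA-C (113.4) were among the highest per length, and CIITA, the activator of class II genes, had no count. Several other genes of this list lie in the segment of chromosome 6 treated next, where counts were sparse.

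Genes without counts were read against where they lie. Of 18572 protein-coding symbols matched to the annotation, 10644 (57.3%) had at least 1 CPM in all 6 libraries and 3687 (19.9%) had no count. In chromosome 6 between 28 and 34 Mb, which holds the major histocompatibility complex, 39 of 172 (22.7%) reached 1 CPM and 65 (37.8%) had no count, against 452 (56.8%) and 142 (17.8%) of 796 on the rest of that chromosome. PSMB8, a proteasome subunit, and FLOT1, a membrane scaffold, were at 0, and TAP1 and HLA-E were at 0.00371 and 0.414 CPM beside B2M at 443.4. In the first 2.7 Mb of X, a part shared with Y, 2 of 16 reached 1 CPM. Fragments that did not map uniquely had been removed, and the part of this step in these values was not tested, so a count of 0 in these segments is not given here as lack of expression.

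Whole families were nearly absent. Of 397 olfactory receptor genes 368 (92.7%) had no count and none reached 1 CPM in all 6 libraries, and the same held for 83 of 91 keratin-associated protein genes (91.2% at 0), 22 of 25 MAGE tumour antigen genes, all 14 interferon alpha genes and all 40 beta-defensin genes. Of 524 zinc finger genes named ZNF, in contrast, 365 (69.7%) were present, and of 348 solute carriers 168 (48.3%). Of 1321 microRNA symbols 1301 had no count, in libraries of polyadenylated RNA that do not capture mature microRNAs.

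Marker genes of other cell types were mostly missing: of 235 such genes in 18 lists, 23 (9.8%) had at least 1 CPM in all 6 libraries and 92 (39.1%) had no count, or 124 without replicate 4. By comparison 380 of 524 genes (72.5%) of the 18 lists above were present. Those lists include ribosomal proteins (77 of 79), translation factors (26 of 26) and cytoskeletal and adhesion genes (41 of 41). The kidney lists were lower, with 16 of 35 lineage factors, 10 of 35 proximal tubule, 2 of 30 distal and 6 of 14 podocyte genes. The 72.5% is therefore no measure of renal identity. Liver genes such as ALB, APOA1, APOB and TTR, the pancreatic genes INS, GCG and PRSS1, the prostate genes KLK3 and FOLH1, the T cell genes CD3D and CD3E, the myeloid genes SPI1 and MPO and the pluripotency gene NANOG were at 0. The summed CPM of the lymphoid list lay between 0.424 and 0.773, that of the pancreas list between 0 and 0.846, that of the lung list between 0.141 and 2.12 and that of the erythroid list between 1.01 and 2.54.

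The list of the embryonic kidney line HEK293, which includes PAX2, summed to 143.7 to 180.8 CPM, and 5 of its 11 genes reached 1 CPM in every library. Several other lists with higher sums owed them to a few members. KRT19, which epithelial cells of many organs express, carried 205.2 CPM of the breast luminal list, in which FOXA1, TFF1 and AGR2 had no count and ESR1 was counted in replicate 4 alone. TUBB3 (90.9 CPM) and the neurofilament gene NEFL (92.7 CPM) led the neuronal list without GAP43 or ELAVL4, MITF (56.6 CPM) the melanocyte list without TYR or DCT, and EGFL7 (53.1 CPM) the endothelial list, in which CDH5 was at 0.117 CPM (0.662 in replicate 4 and at most 0.0392 in the rest). SERPINA1 (16.4 CPM) led the hepatocyte list, KRT10 (43.2) the keratinocyte list, CD68 (10.7) the myeloid list and SLC45A3 (14.5) the prostate list.

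Replicate 4 carried genes of striated muscle, stroma and clear cell tumours that the other 5 libraries lacked. The summed CPM of the 17 striated muscle genes was 85.9 in replicate 4, 6.22 to 9.76 in the other 5 and 5.196 to 10.51 in the 18 libraries of the other groups. Outside replicate 4 most of that sum was titin (TTN, 5.09 to 9.51 CPM). The summed CPM of the 12 fibroblast and stroma genes was 127.1 in replicate 4 and 30.7 to 56.3 in the others, where PDGFRB made up most of it, and 100.0% of the stroma genes and 82.4% of the muscle genes were highest in replicate 4, against 15.2% of the 11650 genes with a mean of at least 1 CPM. The cytosolic ribosomal proteins (49 of 79) and translation factors (13 of 26) were also often highest there. In bulk RNA a few cells of another type and a low level in every cell cannot be told apart, and where these counts come from was not tested.

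**Figure D1:**
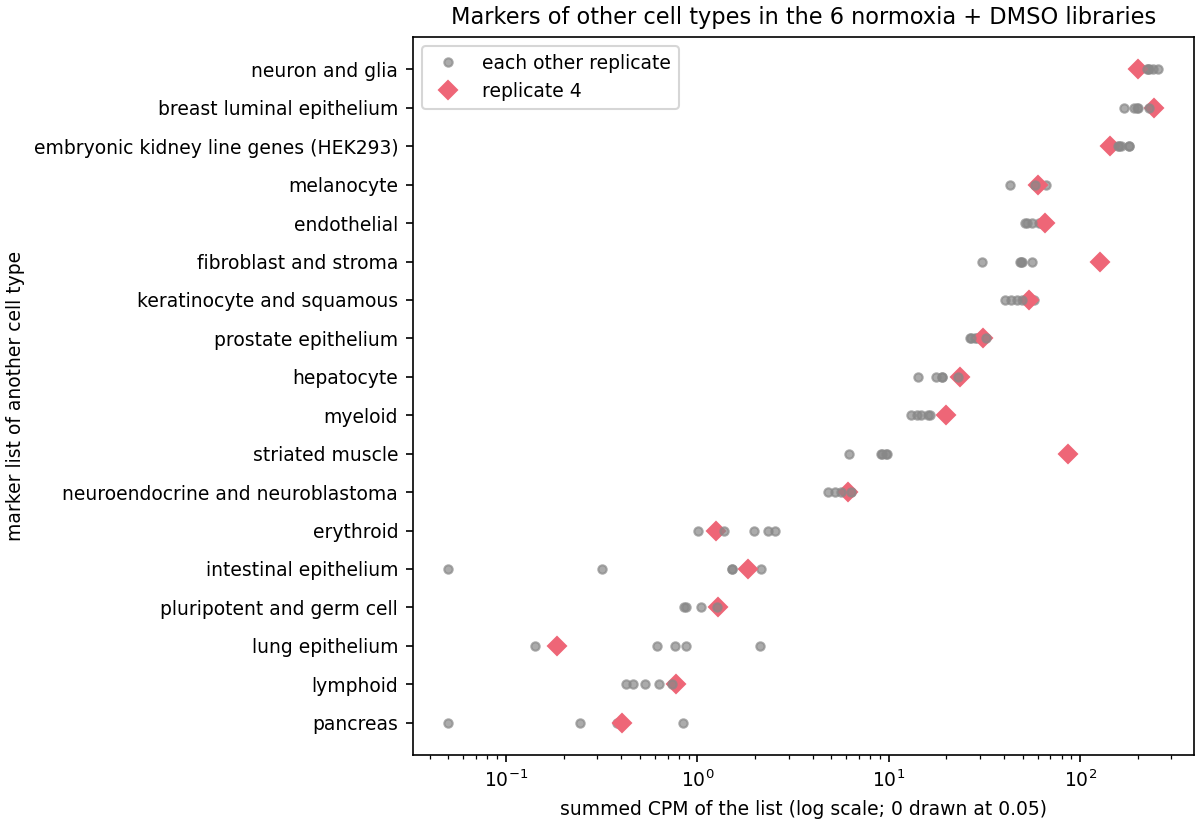
Summed CPM (horizontal axis, log scale) of each of 18 marker lists of other cell types in the 6 normoxia + DMSO libraries; the diamond is replicate 4 and circles are the other replicates, with 0 drawn at 0.05. Replicate 4 lies apart for striated muscle (85.9 CPM) and for fibroblast and stroma (127.1 CPM) and within or near the other libraries for the remaining lists.

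The 15 genes most particular to replicate 4, chosen for the ratio of its CPM to the highest of the other 5, are given as a description. Skeletal actin ACTA1 had 519 counts in replicate 4 (19.1 CPM) and none in the other 5 libraries, at least 1010-fold higher than the 0.0189 CPM that 3 counts over those 5 stand for. The fibrillar collagens COL1A2 (442 counts, 16.3 CPM) and COL3A1 (435 counts, 16.01 CPM) had none elsewhere, and were at least 863-fold and 849-fold higher. The muscle genes CKM, MYL2, MYBPC1, XIRP2 and KLHL41 (3.72 to 7.73 CPM) also had no count in the other 5, and MYH7 (8.46 CPM) and TNNC2 (3.57 CPM) had 1 each.

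The remaining 5 were FABP7 (5.78 CPM), a fatty acid binding protein found in renal carcinoma, EGLN3 (3.57 CPM), the HIF target CA12 (6.81 CPM, 5 counts in the other libraries), the plasma protein A2M (3.02 CPM) and C8orf22 (3.75 CPM). EGLN3 reached 0.123 CPM at most in the 18 libraries of the other groups, and ACTA1 0.951. The 75 genes that exceeded the other libraries 5-fold made up 0.0325% of the counts of replicate 4. VHL (168.4 CPM) and PAX8 (229.2 CPM) lay within the range of the other libraries in replicate 4.

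For most genes the 6 libraries were close. Over the 10077 genes with a mean of at least 5 CPM, the median SD of log2 CPM was 0.16, with and without replicate 4, and 90 in 100 genes lay below 0.30. The median SD was 0.276 for genes between 5 and 10 CPM, 0.14 between 30 and 100 CPM and 0.134 at 1000 CPM and above. The steadiest genes included the proteasome subunit PSMD1 (199.1 CPM, SD of log2 CPM 0.019), RNF114 (0.020), MGAT4B (0.023) and NONO (0.027). Of the 10077 genes, 20 had an SD above 1, or 21 without replicate 4.

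The 15 genes of largest SD over all 6 libraries and the 15 without replicate 4 shared 13 members. The SD of the fifteenth gene, TAPBP, was 1.18 and that of the next, VAV3, 1.17; without replicate 4 the fifteenth and the next had 1.27 and 1.23. Since these genes were chosen for their spread, their values are a description.

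Of the 15, 5 lay in the segments of chromosome 6 and X with sparse counts. GTPBP6 (X, 221196 to 230884, GRCh37) had 0.507, 1.43, 12.1, 0.515, 5.51 and 17.98 CPM in replicates 1 to 6. CD99, a surface glycoprotein, had 43.6 CPM in replicate 1 and 34.8 in replicate 5 but 3.46 to 4.42 in the rest, with no value between. CUTA (6, 33384219 to 33386094) was at 15.4 and 21.1 CPM in replicates 2 and 3 and at 1.40 to 3.25 in the rest.

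The mitotic kinesin KIFC1 ranged from 2.03 to 27.4 CPM and the antigen loading factor TAPBP from 2.66 to 25.6. KIFC1 and TAPBP were both highest in replicate 5, GTPBP6 in replicate 6, CD99 in replicate 1 and CUTA in replicate 3. In normoxia + ITE the high libraries had the same numbers only in part. CD99 was at 30.4 to 40.6 CPM in replicates 1, 3 and 4 there and at 3.17 CPM in replicate 5. CUTA was again highest in replicate 3, at 131.0 CPM, but was at 1.72 CPM in replicate 2. The median SD was 0.27 over the 24 genes of the chromosome 6 segment and 0.16 over the 413 on the rest of that chromosome.

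COL1A1 entered through replicate 4, with 27.1 CPM there and 0.707 to 2.75 CPM in the rest, and its SD of log2 CPM fell from 1.71 to 0.76 without it. LOC440354 (1.58 to 18.9 CPM) has near-identical copies, and its counts are uncertain. TUBB4A, a tubulin of neurons, and TMEM86A were low in replicate 5 alone: TUBB4A had 0.283 CPM there and 4.06 to 9.62 in the rest, and TMEM86A 1.13 against 7.78 to 11.2.

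Several of the remaining genes were high together in replicates 1 and 2. The G protein regulator RGS5 had 40.1, 36.5, 17.7, 16.9, 5.23 and 2.86 CPM in replicates 1 to 6. The kidney-specific cadherin CDH16 had 26.6, 26.0, 10.3, 6.99, 3.11 and 7.40 CPM. VCAM1, an adhesion molecule of injured tubule cells, had 45.5, 28.3, 14.9, 6.66, 8.90 and 4.13 CPM.

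CDH6, the cadherin of the early proximal tubule, ranged from 1.27 CPM in replicate 5 to 27.2 in replicate 2, DPYSL5 from 2.54 in replicate 5 to 19.0 in replicate 1, and SPARC, a matrix protein, from 1.13 in replicate 5 to 16.9 in replicate 4. VAV3 (2.83 to 23.1 CPM) joined the 15 without replicate 4. Of the 10 variable genes outside both segments, 7 were highest in replicate 1 or 2 and 9 lowest in replicate 5 or 6, where 34.9% and 37.3% of the 10077 genes were.

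The libraries of the other groups took no part in choosing these genes. RGS5 was highest in replicate 1 of normoxia + ITE (48.5 CPM) and lowest in replicate 6 (6.80 CPM), and CDH16 was at 24.7 and 23.1 CPM in its replicates 1 and 2 and at 3.58 to 7.94 in the rest. In normoxia + ITE 8 of the 10 genes were highest in replicate 1 or 2 (39.7% of all 10077 genes were), in hypoxia + DMSO 6 of 10, which is near the share of all genes (55.7%), and in hypoxia + ITE 9 of 10 (25.5%). Lowest in replicate 5 or 6 were 9 of 10 in normoxia + ITE, where 27.8% of all genes were. It was 7 of 10 in hypoxia + DMSO (19.5%) and 8 of 10 in hypoxia + ITE (47.5%). No label ties a replicate number to a culture, passage or batch, and what the numbers share was not tested.

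Proximal tubule genes took part in this spread. Of the 10 with a mean of at least 5 CPM, 6 lay above the value that 90 in 100 genes stay below, namely SLC22A2, DPP4, VCAM1, CDH6, CDH16 and SLC17A3, and the median SD of the 10 was 0.56 (0.58 without replicate 4). SLC22A2, the organic cation transporter, had 23.7, 22.7, 15.4, 11.4, 6.08 and 6.66 CPM in replicates 1 to 6. HAVCR1, GGT1, PDZK1 and the inositol oxygenase MIOX did not share this spread, and PDZK1 was highest in replicate 4 (78.4 CPM against 44.1 to 52.4).

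Among the other lists with members above that value were extracellular matrix (10 of 29), mesenchymal genes (6 of 14), receptors (6 of 20) and renal lineage factors (4 of 15, with PAX2 among them). COL1A1 is counted in both the matrix and the mesenchymal list. HIF-linked genes had 4 of 21 above that value and epithelial genes 3 of 13. By contrast 0 of 77 ribosomal protein, 0 of 26 proliferation and 0 of 32 tumour suppressor genes lay above it. Claudin 2 (CLDN2), a tight junction pore of the proximal tubule, varied most among genes above 100 CPM, from 58.0 CPM in replicate 5 to 299.0 in replicate 1 (SD of log2 CPM 0.92).

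Over all 24 libraries the 5 genes whose log2 CPM followed that of PAX8 most closely were MMS19, ST3GAL1, IGF2BP2, ACOX3 and SYDE1. Their correlations of 0.90 to 0.92 are given as a description. The libraries differ in depth and in normalisation factor, and the part of either in these correlations was not tested.

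Finally, the baseline levels were compared with the other groups in a quasi-likelihood model of all 24 libraries (edgeR, 11735 genes tested, Benjamini-Hochberg adjusted p under 0.05). Among all genes 6 were higher (0.0511%) and 0 lower (0.0%) in normoxia + ITE than in normoxia + DMSO, where 171 had an unadjusted p under 0.05 and DESeq2 called 14 (13 higher, 1 lower). With a block for the replicate number 13 were higher and 0 lower, and with only these groups and the block 160 were higher and 95 lower. In hypoxia + DMSO 136 were higher (1.16%) and 16 lower (0.136%), and without normoxia + DMSO replicate 4 117 were higher and 5 lower. The number lower was larger elsewhere, 47 with DESeq2 (204 higher), 47 with only the compared groups (186 higher) and 57 with those groups and the block (201 higher). These comparisons share the 6 control libraries.

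Depth in hypoxia + DMSO ranged from 770094 to 37995687 counts.

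Of the 397 identity genes tested, 2 were higher with ITE and 0 lower, both AHR targets: CYP1B1 went from 56.7 ± 7.74 to 322.1 CPM (log2 fold change 2.51, SE 0.20, edgeR adjusted p = 7.638e-09) and TIPARP from 48.3 ± 4.91 to 122.5 CPM (log2 fold change 1.35, SE 0.17, adjusted p = 4.774e-05). In hypoxia 22 were higher and 1 lower. Of the 24 HIF-linked genes tested 19 rose, with a median log2 fold change of 1.44 over the 24, where the median over all genes was 0.0. This list was chosen with earlier results of these data known, so its values are a description.

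The largest rises of identity genes in hypoxia were those of the glycolytic regulator PFKFB4 (from 5.04 ± 1.17 to 52.8 ± 6.68 CPM, log2 fold change 3.41, SE 0.19, edgeR adjusted p = 4.289e-13), NDRG1 (from 33.1 to 316.1 CPM, log2 fold change 3.25) and ANKRD37 (from 1.09 to 7.92 CPM, log2 fold change 2.81). BNIP3, ADM, ANGPTL4, SPAG4, HILPDA, PLIN2 and PDK1 followed, with log2 fold changes from 2.55 to 1.61. The value of ANGPTL4, an inhibitor of lipoprotein lipase, moved most with replicate 4, from a log2 fold change of 2.402 to 3.07 without it, which is above that of ANKRD37 (2.81). Among the abundant genes LDHA rose from 1899 ± 295 to 4404 ± 230 CPM (log2 fold change 1.21, SE 0.11) and the aldolase ALDOA also rose, 2 of the 100 genes with the highest TPM. LOX, a collagen cross-linker, rose with replicate 4 in the fit (log2 fold change 0.82, edgeR adjusted p = 0.0355) and was past the threshold no longer without it (0.76, adjusted p = 0.101). CDC20 was the identity gene that fell, by 0.53 on the log2 scale.

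PAX8 and VHL did not pass the test in either comparison, with log2 fold changes of -0.12 (SE 0.15) and 0.07 (SE 0.23) for ITE and 0.05 (SE 0.15) and 0.03 (SE 0.23) for hypoxia. PAX2 had log2 fold changes of 0.40 (SE 0.20) for ITE and 0.44 (SE 0.20) for hypoxia. Its edgeR p was 0.0492 and 0.0388 before adjustment, and 0.9998 and 0.485 after. The paper lists PAX2 among the genes that both factors bind and both stimuli raise. No gene among the 15 most variable passed in either comparison. They were chosen for their spread in the control libraries of both comparisons, which makes a pass less likely. Of all genes 0.0511% were higher and 0.0% lower with ITE, and 1.16% and 0.136% in hypoxia, so this is no result about the 15. A p above the threshold does not show that these levels were equal.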

How the data were processed

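The authors trimmed adaptors (Trim Galore 0.3.3), aligned paired reads to GRCh37 with HISAT2, removed fragments that did not map uniquely (Picard 2.0.1) and counted reads per UCSC gene with HTSeq (0.5.4p3). The deposited values are these raw counts, not normalised, for 23106 symbols. The kit was directional, and the strand setting of the counting is not given in the sources used here.

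Groups and replicates came from the labels, and the study names the 6 replicates independent. Counts were scaled by TMM (edgeR 4.0.16, R 4.3.3), and log2 CPM used a prior count of 2. TPM used canonical transcript lengths of GENCODE v44lift37, matched for 19892 symbols (86.1%). Contrasts used edgeR's quasi-likelihood test (filterByExpr, minimum count 10, 11735 genes, 1 mean per group); DESeq2 1.42.0 was an alternative. The fit was tested on simulated data. Start sequences came from RefSeq.

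The lists, members and rules were chosen with earlier results of these data known. Named genes were the 15 highest by TPM and 10 by CPM, up to 5 members of each list by TPM and those at 0, the 15 most variable genes with and without replicate 4, the 15 highest ratios in replicate 4, up to 10 listed genes called per contrast and 5 genes most like PAX8. Other genes, among them CDH1, CDKN2A, CDKN2B, MTAP, PBRM1, CA9, AHR and the HOX genes, were chosen after their values were seen. Some genes that these rules name are not reported here.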

Additional observations from a re-analysis of the deposited data

Results flagged for a closer look

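Of 94 values examined over the 6 normoxia + DMSO libraries, 23 had a single library far from the other 5 by Dixon's criterion, where chance alone gives about 1 in 20 (4.7). Of the 23, 15 are genes chosen because they were high in replicate 4, so their number is no finding.

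Replicate 4 was the highest by far for the summed CPM of striated muscle (85.93, next 9.76) and of fibroblast and stroma genes (127.1, next 56.3), for COL1A1 (27.12 CPM, next 2.75) and for RPL7A (2065 CPM, next 1786). The genes chosen for it were ACTA1 (19.1 CPM), COL1A2 (16.27), COL3A1 (16.01), MYH7 (8.464), CKM (7.728), MYL2 (7.692), CA12 (6.808), MYBPC1 (6.551), XIRP2 (5.925), FABP7 (5.778), C8orf22 (3.754), KLHL41 (3.717), TNNC2 (3.57), EGLN3 (3.57) and A2M (3.018).

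In replicate 5 the summed CPM of cytoskeletal and adhesion genes was the highest at 46340 (next 42420). The sum of melanocyte genes, nearly all of it MITF, was the lowest there at 43.25 (next 57.97), and so was TMEM86A at 1.131 CPM (next 7.78). The summed CPM of lung epithelium genes was highest in replicate 6 at 2.116 (next 0.868).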

How the results depend on the processing

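Settings that moved a count were mainly the choice of samples and tool. For ITE in normoxia the 6 calls became 13 when a block for the replicate number was added, 14 with DESeq2, 30 with only the compared groups and 255 (160 higher, 95 lower) with both those groups and the block, an alternative chosen after seeing the data. For hypoxia with DMSO the 152 calls became 251 with DESeq2, 174 with the block, 233 with only the compared groups and 258 with both. Same-numbered libraries deviated together in part. The correlation of their deviations lay between -0.005 and 0.435 for ITE, where 5 of 6 libraries matched their own number best. For hypoxia it lay between -0.022 and 0.245, and replicates 3, 5 and 6 matched their own number best. No label says what the numbers share, and the main fit did not take them as pairs, so its calls leave any pairing out. Without normoxia + DMSO replicate 4 there were 4 and 122 calls.

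The share of the 50 leading genes was 21.28% of length-scaled counts against 14.22% of counts, and VHL was at 184.0 CPM by total count against 175.2. The other settings stayed within the limits set for these values. Leaving out each of the 6 libraries in turn gave 11069 to 11201 genes at 1 CPM or more, 6720 to 7334 symbols without counts (the highest without replicate 4), a share of the 50 leading genes of 14.15% to 14.26%, a coefficient of variation of 11.76% to 13.26%, and means of 26.03 to 30.46 CPM for PAX2, 239.8 to 248.9 for PAX8 and 172.5 to 176.7 for VHL. At thresholds of 0.5 and 5 CPM there were 11496 and 9596 genes. Of the named changes, LOX alone lost its call without replicate 4, and the cause was not tested. Depth limits low genes: in the shallowest library 3 counts stand for 0.4349 CPM, and thinning all libraries to 6898880 counts left 7879 symbols at 0.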
